A study of Homo sapiens with 18 samples.

Results

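SUDHL6 is an established line of human diffuse large B cell lymphoma of the germinal centre type that carries an EZH2 mutation. Its response to 79-6.1085, a BCL6 inhibitor known here by its code name, was measured by RNA-seq in 6 of the 18 libraries of the series. They were chosen by the line named in the labels, and 3 come from cells given 79-6.1085 at 10 µM for 12 h and 3 from cells given DMSO, the vehicle, for 12 h. The other 12 libraries hold the same groups in Farage and SUDHL4, other lymphoma lines. Of 23250 genes listed per library, 11226 reached 1 CPM, counts scaled to the size of the whole library, in at least 3 of the 6 libraries and were tested. The labels give no genetic change in either group, the cells are of 1 line, and the labels do not say whether replicates were separate cultures. The p-values therefore measure the spread between these libraries, which may be technical.

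BCL6 is a transcriptional repressor that germinal centre B cells need. It binds DNA through zinc fingers and recruits corepressors such as BCOR through its BTB domain, and it holds down genes of cell cycle arrest, lymphocyte migration and plasma cell differentiation. EZH2, the methyltransferase of Polycomb repressive complex 2, and CBX8, a subunit of Polycomb repressive complex 1, act at many of the same promoters. The series asks how BCL6 and EZH2 work together, and these libraries ask which transcripts change when BCL6 is inhibited.

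Reads on listed genes numbered 6.29 to 17.35 M in treated and 7.36 to 20.6 M in DMSO libraries, and replicate 3 was shallow in both groups. These genes made up 74.63 to 75.98% of the CPM divisor in treated libraries and 77.62 to 78.81% in DMSO libraries. The first principal component, 80.4% of the variance, put treated libraries at -71.2, -38.1 and -40.1 and DMSO libraries at 45.0, 49.9 and 54.4. The second, 11.4%, set replicate 3 apart in both groups, at -31.5 when treated and -22.2 in DMSO. All 7 B cell line markers were tested, and MS4A1 (CD20) stood at 1094 ± 217 CPM in treated and 2570 ± 136 CPM in DMSO libraries (SD, n = 3 each). The 12 T and NK cell markers summed to at most 0.178 CPM in treated and 0.27 CPM in DMSO libraries, and the 12 stromal and epithelial markers to at most 0.483 CPM in treated and 0.308 CPM in DMSO libraries. Of 11 myeloid markers, CD68, a lysosomal protein, averaged 14.6 CPM in treated and 5.07 CPM in DMSO libraries, CD14 averaged 1.88 CPM in treated and 0.216 CPM in DMSO libraries, and 6 were at 0 in every library, LYZ among them.

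Most genes tested differed between treated and DMSO cells. At an adjusted p threshold of 0.05 (limma on log2(CPM + 1), Benjamini-Hochberg over all genes tested), 2492 genes were higher and 3926 lower. These are 22.2% and 35.0% of the genes tested, 57.2% together, and the counts for gene lists below stand against these shares. Changes of at least 2-fold were called in 869 genes upward and 2015 downward, and of at least 8-fold in 35 upward and 22 downward. In 6417 of the 6418 called genes all 3 same-numbered pairs of libraries moved in the called direction. Over all genes tested, the 3 pairs all rose in 3597 and all fell in 5501. A call needs groups that stand apart, so this agreement is no separate support for the calls. The balance of directions rests on the scaling. The median log2 change of all genes was -0.195 as deposited and -0.0222 after median-of-ratios scaling. The share of calls that were higher was 38.8% as deposited and 50.1% after that scaling, with 3203 genes higher and 3190 lower. Changes near 0 in the values below are best read against that shift. In bulk RNA, fewer cells of a kind and less RNA per cell cannot be told apart.

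**Figure D1:**
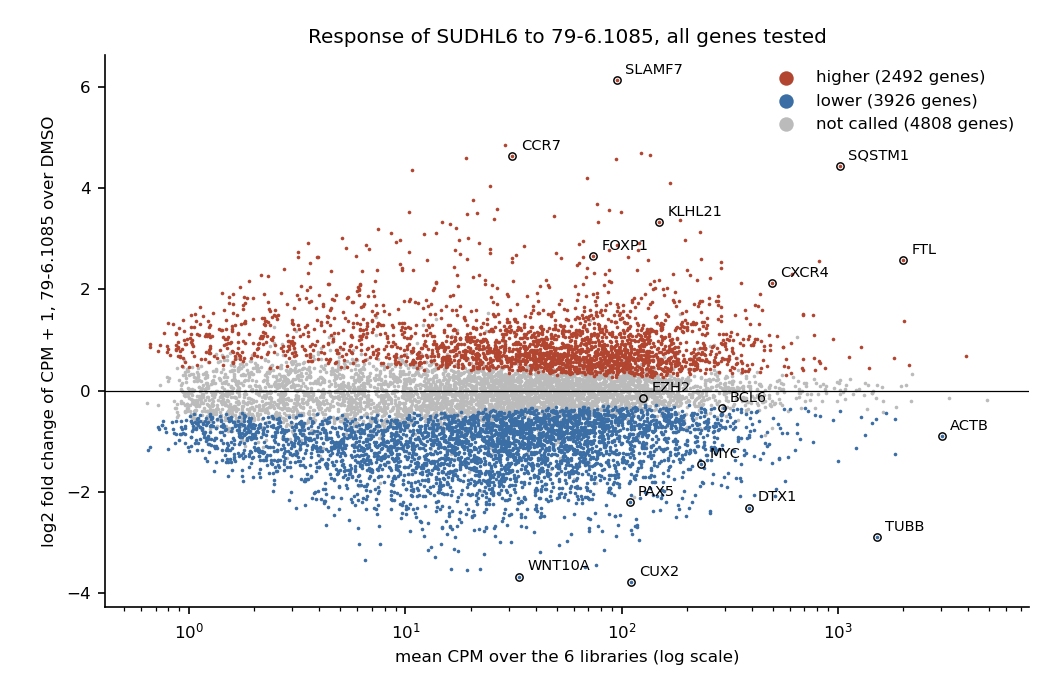
Log2 fold change (treated over DMSO, on CPM + 1) against mean CPM over the 6 libraries on a log axis, 1 point per tested gene, coloured by call; 2492 genes are higher and 3926 lower. SLAMF7 stands highest at 6.14, CUX2 is lowest at -3.79, and BCL6 and EZH2 lie near 0.

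The direction of change differed with the level of the transcript. Among 1999 genes at a mean of 100 CPM or more, 32.6% were higher and 29.2% lower. Among 2519 genes between 5 and 20 CPM, 15.3% were higher and 39.9% lower. Genes called higher spanned a median of 35.9 kb in the RefSeq annotation of GRCh38.p14, those called lower 26.0 kb, and all genes tested 29.1 kb, with 97.0% of genes matched. The longer span did not hold for the strong rises. The 145 genes called at least 4-fold higher spanned a median of 28.5 kb, and the 296 at least 4-fold lower 26.3 kb. Steady genes, whose 95% interval of the log2 change lay within -0.5 and 0.5, numbered 1174, or 10.5%.

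The transcripts of BCL6, EZH2, CBX8 and BCOR were not called in the fit of the 6 libraries without a block. BCL6 was at 214, 324 and 227 CPM in treated libraries and at 305, 409 and 262 CPM in DMSO libraries. The groups overlapped, although each treated library lay below its same-numbered DMSO library (log2 fold change -0.35, SE 0.212, adjusted p = 0.191). The same change was called with the replicate block, at adjusted p = 0.0113, and in the fit of all 18 libraries, at 0.0409. Both of these used the values as deposited. After median-of-ratios scaling the log2 change was -0.163, and edgeR did not call it (adjusted p = 0.490). EZH2 averaged 121 ± 44.0 CPM in treated and 130 ± 18.5 CPM in DMSO libraries (adjusted p = 0.623), CBX8 11.1 ± 3.22 CPM treated and 13.9 ± 2.05 CPM in DMSO (adjusted p = 0.256), and BCOR 78.7 ± 12.9 CPM treated and 75.9 ± 9.92 CPM in DMSO (adjusted p = 0.814).

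Genes known as direct targets of BCL6 repression rose more often than they fell. Of 22 tested members of that list, 10 were higher and 4 lower, with a median log2 change of 0.51 (0.69 after scaling), against the median of -0.195 over all genes. CXCR4, the chemokine receptor that places B cells in the dark zone of the germinal centre, stood at 1125, 906 and 419 CPM in treated libraries and at 205, 203 and 122 CPM in DMSO libraries. The groups did not overlap, and replicate 3 was the lowest in each (log2 fold change 2.12, SE 0.371, adjusted p = 0.00231). GPR183, a receptor for oxysterols that steers activated B cells to follicle borders, was at 11.9, 8.57 and 2.42 CPM in treated libraries and at 0.501, 0.151 and 0 CPM in DMSO libraries (2.65, adjusted p = 0.00232). CDKN1A, the p21 inhibitor of cyclin-dependent kinases, was at 70.5, 23.0 and 79.6 CPM in treated libraries and at 5.01, 6.53 and 10.6 CPM in DMSO libraries (2.68, adjusted p = 0.00229). The members that fell were led by MYC, at 115, 126 and 134 CPM in treated libraries and at 350, 361 and 318 CPM in DMSO libraries (-1.45, SE 0.110, adjusted p = 0.000153).

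The 15 largest rises and the 15 largest falls below are of genes at a mean of 5 CPM or more and leave out names of noncoding kinds, which follow further on. They were picked among called genes whose groups did not overlap and whose same-numbered pairs all moved the same way. The rises joined lymphocyte surface and signalling genes with stress genes. SLAMF7, a SLAM family receptor carried by plasma cells and NK cells, had the largest change of all genes called. It was at 315, 119 and 133 CPM in treated libraries and at 1.39, 1.06 and 1.93 CPM in DMSO libraries (6.14, SE 0.361, adjusted p = 0.000114). LY9, another receptor of that family, was at 513, 317 and 129 CPM in treated libraries and at 17.2, 16.1 and 12.3 CPM in DMSO libraries (4.11, adjusted p = 0.000383). Separation of the groups was a condition of the choice of both genes, and the margin was wide. CCR7, the chemokine receptor that draws lymphocytes to T cell zones, was at 115, 43.0 and 25.7 CPM in treated libraries and at 1.31, 0.868 and 1.07 CPM in DMSO libraries (4.63, adjusted p = 0.000330). RGS1, which damps chemokine receptor signalling, averaged 237 ± 138 CPM in treated and 7.35 ± 2.46 CPM in DMSO libraries (4.71). PELI2, a ubiquitin ligase adaptor of Toll-like receptor signalling, averaged 39.5 ± 32.7 CPM treated and 1.57 ± 1.13 CPM in DMSO (3.77). In each of these 5 genes treated replicate 1 was the highest library. The autophagy genes GABARAPL1 (4.61) and SQSTM1 (4.45) completed the group outside the stress lists.

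The rest of the 15 largest rises were ATF3, SLC7A11, DNAJB4, OSGIN1, HMOX1, TRIB3, CHAC1 and DDIT3, all of them members of stress lists. Of the tested members of each list, 14 of 15 were higher for NRF2, the oxidant-sensing factor, 19 of 22 for ATF4, the effector of the amino acid and unfolded protein responses, and 11 of 15 for heat shock. Promoter letters are shown for 3 of the named members, because their motif lay before the start site. The sequences are from the RefSeq promoter table of GRCh38.p14, a build other than the hg19 of the expression files, with the motif in capitals and 30 bases to each side.
HSPA1B, + strand, chr6:31827603-31827670: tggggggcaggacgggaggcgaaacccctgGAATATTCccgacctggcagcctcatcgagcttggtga
ATF3, + strand, chr1:212565186-212565253: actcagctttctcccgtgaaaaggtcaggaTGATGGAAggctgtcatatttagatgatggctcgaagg
CHAC1, + strand, chr15:40953232-40953299: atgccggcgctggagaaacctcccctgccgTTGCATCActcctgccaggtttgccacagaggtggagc
The HSPA1B motif matches GAANNTTC, a short heat shock element, which 5.78% of all 35116 promoters of that table hold on either strand within the 250 bases before the start. The ATF3 and CHAC1 motifs match TGATGNAA, the composite site of ATF4 with a CEBP partner, which 3.14% hold there. The CHAC1 match is on the minus strand, and that of ATF3 lies before 1 of its 2 listed starts. A match describes these letters only. DNAJB4, BAG3, OSGIN1 and TRIB3, the other leading stress genes with an entry, had no match to the motif searched for their list in that stretch; for OSGIN1 it was TGACNNNGC, a core of the antioxidant response element. HSPA1B, a chaperone gene that shares reads with its near-identical copy HSPA1A, was at 122, 106 and 111 CPM in treated libraries and at 11.8, 15.4 and 16.0 CPM in DMSO libraries (2.90, adjusted p = 0.000114). ATF3, a stress-induced transcription factor, was at 97.6, 38.7 and 34.7 CPM in treated libraries and at 0.424, 0.944 and 1.07 CPM in DMSO libraries (4.86, adjusted p = 0.000168). CHAC1, an enzyme that breaks down glutathione, was at 57.3, 53.2 and 38.3 CPM in treated libraries and at 3.01, 5.21 and 1.82 CPM in DMSO libraries (3.60, adjusted p = 0.000196). HSPA1B separated fully between the groups, while for ATF3 and CHAC1 full separation was a condition of their choice.

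The falls were a mixed set of transcription, adhesion and metabolic genes. CUX2, a homeodomain factor, was at 9.42, 18.5 and 14.3 CPM in treated libraries and at 153, 203 and 263 CPM in DMSO libraries (-3.79, SE 0.270, adjusted p = 0.000146). WNT10A, a WNT ligand, was at 2.02, 4.22 and 6.64 CPM in treated libraries and at 53.6, 68.1 and 66.5 CPM in DMSO libraries (-3.68, adjusted p = 0.000206). SIT1, a transmembrane adaptor that restrains antigen receptor signalling, was at 4.78, 15.4 and 13.5 CPM in treated libraries and at 132, 126 and 114 CPM in DMSO libraries (-3.49, adjusted p = 0.000343). That no treated library reached a DMSO library in them was a condition of their choice. CD82, a tetraspanin, fell by 3.20 on the log2 scale, ADAM19, a membrane metalloprotease, by 3.15, and LRRC16A, a regulator of actin filament capping, by 3.23. The mitochondrial enzymes CHDH (choline dehydrogenase, -3.54), ALDH1B1 (an aldehyde dehydrogenase, -3.13) and MRM1 (a ribosomal RNA methyltransferase, -3.10) were also among the 15. The rest were LRRC20, ESPNL, FAM81A, TMEM229B, PODXL2 and HPDL, at -3.15 to -3.55.

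**Figure D2:**
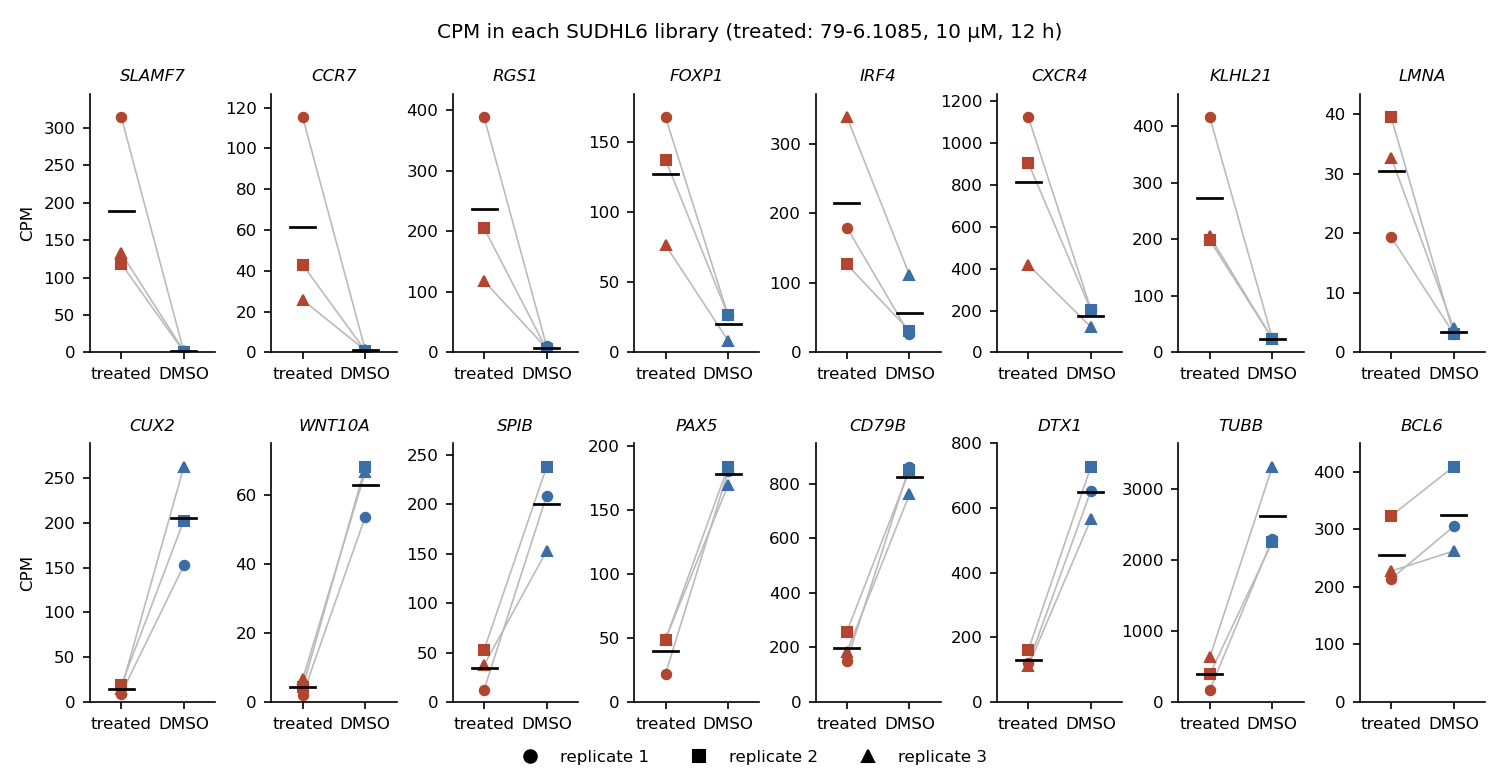
CPM of 16 genes in each library, treated (left, red) and DMSO (right, blue), with the same-numbered libraries joined, markers for the replicate and a black bar for the mean of 3. For 15 genes the groups do not overlap; for BCL6 they do, while each joined line runs up toward DMSO.

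In absolute CPM, where long and abundant transcripts weigh most, ferritin and tubulin genes moved furthest. FTL, the ferritin light chain, was at 3658, 3281 and 3382 CPM in treated libraries and at 600, 501 and 630 CPM in DMSO libraries (2.58, SE 0.145, adjusted p = 0.000114). PSAP, the precursor of lysosomal saposins, averaged 1412 ± 606 CPM in treated and 226 ± 36.2 CPM in DMSO libraries (2.57). TXNRD1, thioredoxin reductase, averaged 1027 ± 382 CPM treated and 199 ± 4.82 CPM in DMSO (2.30). TUBB, a beta tubulin, stood at 168, 391 and 627 CPM in treated libraries and at 2293, 2254 and 3315 CPM in DMSO libraries (-2.90, SE 0.434, adjusted p = 0.00123). Its treated libraries spread more than 3-fold and still lay below all DMSO libraries. ACTB, cytoplasmic actin, averaged 2118 ± 541 CPM treated and 3914 ± 874 CPM in DMSO (-0.90, adjusted p = 0.0182), a call that was lost after scaling (-0.71, adjusted p = 0.0569). NCL, the nucleolar protein nucleolin, and PRKDC, the kinase of DNA end joining, fell by 1.14 and 1.39 on the log2 scale.

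Some genes crossed from near silence to clear expression. Taking under 0.5 CPM in every library of 1 group and at least 2 CPM in every library of the other, 16 genes were on in treated cells alone and 7 in DMSO cells alone. TNFRSF14, the receptor HVEM that is often lost in germinal centre lymphoma, was at 12.7, 11.7 and 5.19 CPM in treated libraries and at 0.462, 0.264 and 0.107 CPM in DMSO libraries (3.02, adjusted p = 0.000351). FZD7, a WNT receptor, averaged 7.45 ± 1.56 CPM in treated and 0.347 ± 0.137 CPM in DMSO libraries, FAM46C, a poly(A) polymerase active in plasma cells, 6.26 ± 2.76 CPM treated and 0.114 ± 0.113 CPM in DMSO, and HSPA6, an inducible chaperone, 7.04 ± 1.25 CPM treated and 0.0614 ± 0.0552 CPM in DMSO. In the shallowest library 3 reads are 0.362 CPM, so the low values rest on few reads. The 7 that were switched off were LY86-AS1, ARHGAP22, HOXA3, TSPAN15, HOXA4, HSPA12B and TET1. HOXA3, a homeobox gene, was at 0.258, 0.311 and 0.121 CPM in treated libraries and at 3.08, 4.04 and 2.78 CPM in DMSO libraries (-1.80, adjusted p = 0.000307). TET1, a 5-methylcytosine dioxygenase, averaged 0.279 ± 0.199 CPM treated and 2.37 ± 0.410 CPM in DMSO (-1.41, adjusted p = 0.000813).

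Transcription factors of the B cell programme split into a large falling and a small rising set. Of 30 tested, 5 were higher and 15 lower, with a median of -0.71 (-0.53 after scaling). POU2F2 (OCT2), an octamer factor of B cells, was at 8.61, 25.9 and 21.5 CPM in treated libraries and at 127, 141 and 102 CPM in DMSO libraries (-2.78, SE 0.361, adjusted p = 0.000725). SPIB, an ETS factor of germinal centre cells, averaged 34.2 ± 20.3 CPM treated and 200 ± 43.3 CPM in DMSO (-2.70), IKZF1 (Ikaros) 69.0 ± 43.7 CPM treated and 328 ± 43.0 CPM in DMSO (-2.48), and PAX5, the factor of B cell identity, 39.9 ± 15.5 CPM treated and 178 ± 7.48 CPM in DMSO (-2.21, adjusted p = 0.000706). Treated replicate 1 was the lowest library of each of these genes. In the other direction FOXP1, a forkhead factor that is down in germinal centre cells relative to naive B cells, was at 167, 137 and 76.5 CPM in treated libraries and at 26.5, 26.4 and 8.46 CPM in DMSO libraries (2.66, SE 0.454, adjusted p = 0.00211). IRF4, a factor of plasma cell commitment, was at 180, 126 and 338 CPM in treated libraries and at 26.1, 31.2 and 112 CPM in DMSO libraries (2.10, adjusted p = 0.0141). Its groups did not overlap, replicate 3 was the highest in each, and the call was lost without DMSO replicate 1 (adjusted p = 0.0517). ID2, an inhibitor of E proteins, rose too, at 26.7 ± 9.15 CPM treated against 6.38 ± 2.27 CPM in DMSO (1.89).

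B cell surface molecules fell broadly. Of 39 tested, 28 were lower and 2 higher, with a median of -1.25 (-1.06 after scaling). CD79B, a signalling chain of the B cell receptor, was at 151, 258 and 185 CPM in treated libraries and at 862, 848 and 761 CPM in DMSO libraries (-2.08, SE 0.192, adjusted p = 0.000246). CD72, an inhibitory coreceptor, averaged 22.0 ± 12.0 CPM treated and 134 ± 43.8 CPM in DMSO (-2.68), and the integrin chains ITGB7 (-2.73) and ITGAL (-2.38) fell as well. CD86, the costimulatory ligand of CD28, went the other way, at 220, 310 and 220 CPM in treated libraries and at 86.6, 101 and 127 CPM in DMSO libraries (1.24, SE 0.189, adjusted p = 0.00131). Few HLA genes were called, and reads of these paralogs may be shared. Over the family, 3 of 23 tested genes were higher and 6 lower, 39.1% called against 57.2% of all genes. HLA-E, of class I, rose by 0.90 on the log2 scale. HLA-DMB, which loads peptide on class II, was at 48.2, 58.5 and 50.4 CPM in treated libraries and at 300, 254 and 359 CPM in DMSO libraries (-2.51, adjusted p = 0.000115). HLA-DOB fell by 2.99 and HLA-DPA1 by 1.19 on the log2 scale.

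**Figure D3:**
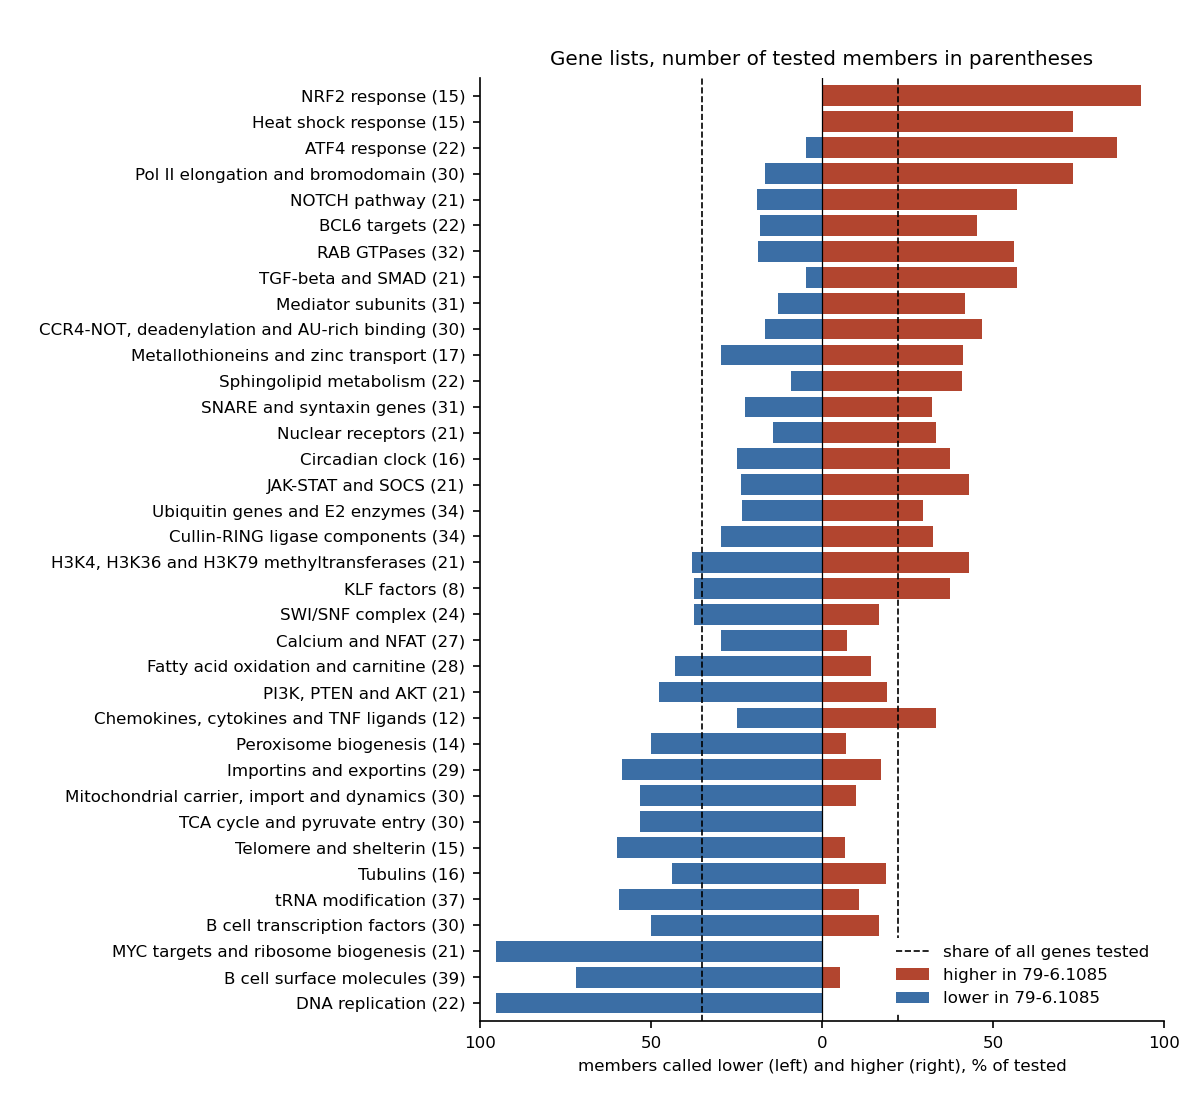
Share of the tested members of each list shown called higher (right, red) and lower (left, blue) in treated SUDHL6, ordered by median log2 change; dashed lines mark the shares over all genes tested, 22.2% and 35.0%. RNA polymerase II elongation, NOTCH and RAB lists lie near the top below the stress lists, and DNA replication and B cell surface lists at the foot.

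Signalling lists moved in both directions. Of 21 tested NOTCH pathway genes, 12 were higher and 4 lower (median 0.54). JAG2, a NOTCH ligand, averaged 10.4 ± 4.62 CPM in treated and 1.74 ± 0.298 CPM in DMSO libraries (1.99, adjusted p = 0.000999). ADAM17, a protease that can shed such receptors, averaged 268 ± 30.8 CPM treated and 77.5 ± 15 CPM in DMSO (1.79). DTX1, a NOTCH-regulating ubiquitin ligase, fell steeply, to 119, 161 and 111 CPM in treated libraries, against 653, 728 and 565 CPM in DMSO libraries (-2.32, SE 0.167, adjusted p = 0.000146). Its relative DTX4 fell by 2.24 on the log2 scale. In the TGF-beta and SMAD list 12 of 21 were higher and 1 lower (median 0.42). Among them were ACVR2A, an activin receptor (1.84), TGFBR1, a TGF-beta receptor (1.48), and SMAD7, an inhibitory SMAD, at 7.66, 5.86 and 7.13 CPM in treated libraries and at 1.93, 1.62 and 1.93 CPM in DMSO libraries (1.47, adjusted p = 0.000533). The JAK-STAT list had 9 of 21 higher and 5 lower, with SOCS1, a feedback inhibitor, at 1.98 and STAT5B at -1.25. For PI3K and AKT, 4 of 21 were higher and 10 lower, a split that scaling made 7 and 7. INPP5D (SHIP1), the lipid phosphatase of B cell receptor signalling, averaged 109 ± 44.4 CPM treated and 367 ± 26.1 CPM in DMSO (-1.82), and PIK3CA, a catalytic PI3K subunit, 65.1 ± 17.2 CPM treated and 16.1 ± 2.40 CPM in DMSO (1.93).
Of 27 calcium and NFAT genes, 8 were lower and 2 higher, and the 37.0% called lie below the 57.2% of all genes. ITPR3, a calcium release channel, fell by 1.76 and CALM3, a calmodulin, by 1.54 on the log2 scale. VEGFA, a secreted angiogenic factor, stood at 348, 280 and 228 CPM in treated libraries and at 74.5, 91.9 and 78.1 CPM in DMSO libraries (1.78, adjusted p = 0.000264).

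Several cytoskeletal regulators fell, and genes of membrane traffic rose more often than they fell. RAC2, the Rac GTPase of blood cells, was at 13.9, 41.9 and 31.7 CPM in treated libraries and at 133, 217 and 223 CPM in DMSO libraries (-2.76, SE 0.386, adjusted p = 0.000932). DOCK2, an activator of Rac in lymphocytes, averaged 106 ± 16.6 CPM treated and 309 ± 17.2 CPM in DMSO (-1.54). ARHGEF12, a guanine nucleotide exchange factor, ran against them, at 135 ± 22.3 CPM treated against 31.1 ± 6.13 CPM in DMSO (2.09). Tubulins had 7 of 16 lower and 3 higher. TUBA1B, an alpha tubulin, fell by 2.07 on the log2 scale. RAB GTPases, which mark vesicle compartments, had 18 of 32 higher and 6 lower (19 and 1 after scaling, median 0.44 and 0.63). RAB21 averaged 85.8 ± 13.8 CPM treated and 36.9 ± 0.0874 CPM in DMSO (1.18) and RAB18 88.7 ± 10.5 CPM treated and 39.2 ± 2.39 CPM in DMSO (1.15). Among SNAREs, 10 of 31 were higher and 7 lower, with STX3 (2.0) and STX5 (1.44) up and STX2 (-1.51) and VAMP8 (-1.27) down. The 54.8% of SNAREs called lie near the 57.2% of all genes.

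Of the lists other than the stress, proliferation and cell type marker sets, the one for RNA polymerase II elongation and bromodomain proteins had the highest median in limma. In edgeR the medians of the BCL6 target list (0.859) and the NOTCH list (0.837) stood above its own (0.833). It held 22 higher and 5 lower of 30 tested, a median of 0.64 (0.83 after scaling), and 90.0% of it was called against 57.2% of all genes. AFF1, a scaffold of the super elongation complex, was at 27.6, 17.3 and 24.9 CPM in treated libraries and at 5.93, 4.64 and 3.0 CPM in DMSO libraries (2.14, SE 0.264, adjusted p = 0.000601). CDK13, a kinase of the polymerase tail, was at 476, 448 and 385 CPM in treated libraries and at 161, 155 and 103 CPM in DMSO libraries (1.66, adjusted p = 0.000438). ELL3, an elongation factor of germinal centre B cells, fell instead, to 15.6, 33.5 and 35.2 CPM in treated libraries, against 213, 246 and 179 CPM in DMSO libraries (-2.95, adjusted p = 0.000307). Mediator subunits had 13 of 31 higher and 4 lower, 54.8% called, near the share of all genes. MED13L averaged 261 ± 47.4 CPM treated and 63.4 ± 13.6 CPM in DMSO (2.03) and MED13 387 ± 68.8 CPM treated and 117 ± 11.6 CPM in DMSO (1.70), both subunits of the kinase module, while MED22 fell by 1.09 on the log2 scale.
In the CCR4-NOT and deadenylation list 14 of 30 were higher and 5 lower, with DCP1A, a decapping cofactor, at 1.34 and PARN, a deadenylase, at -1.69. Of 37 genes for tRNA modification, 22 were lower and 4 higher. PUS7, a pseudouridine synthase, was at 19.7, 19.9 and 18.8 CPM in treated libraries and at 85.4, 79.4 and 100 CPM in DMSO libraries (-2.12, SE 0.131, adjusted p = 0.000115). Its treated values lay within a narrow range, well below DMSO.

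Chromatin lists were divided. Methyltransferases of H3K4, H3K36 and H3K79 had 9 of 21 higher and 8 lower, and their median was -0.00112 as deposited and 0.19 after scaling. SETD1B, an H3K4 methyltransferase, averaged 196 ± 3.99 CPM treated and 86.6 ± 11.0 CPM in DMSO (1.18), and WHSC1 (NSD2), an H3K36 methyltransferase, 95.8 ± 47.3 CPM treated and 283 ± 27.3 CPM in DMSO (-1.71). In the SWI/SNF list 4 of 24 were higher and 9 lower (5 and 6 after scaling), with SMARCA4, the BRG1 ATPase, at 225 ± 42.4 CPM treated and 525 ± 67.7 CPM in DMSO (-1.23). The 54.2% of SWI/SNF genes called lie near the 57.2% of all genes. Of 15 telomere genes 9 were lower and 1 higher. TERT, the catalytic subunit of telomerase, was at 6.67, 7.33 and 7.85 CPM in treated libraries and at 17.1, 32.1 and 36.2 CPM in DMSO libraries (-1.77, adjusted p = 0.00144).

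Genes of mitochondria and of the TCA cycle list, which holds some cytosolic enzymes, fell across several lists. No member of the TCA cycle list was called higher and 16 of 30 were lower, with a median of -0.56 (-0.38 after scaling, with 1 higher and 14 lower). The 53.3% called, all lower, stand against 35.0% of all genes lower. MDH1, cytosolic malate dehydrogenase, was at 113, 127 and 146 CPM in treated libraries and at 330, 302 and 371 CPM in DMSO libraries (-1.38, SE 0.135, adjusted p = 0.000301). IDH2, mitochondrial isocitrate dehydrogenase, averaged 12.4 ± 7.92 CPM treated and 75.5 ± 52.0 CPM in DMSO (-2.48, adjusted p = 0.00534), with replicate 3 highest in both groups. Of 76 tested mitochondrial ribosomal protein genes, 48 were lower and 1 higher, while of 105 cytosolic ribosomal protein genes, pseudogenes included, 10 were lower and none higher. The median of the cytosolic family was -0.08 as deposited and 0.10 after scaling, and 4 were then higher and 9 lower. In edgeR 5 were higher and 8 lower. Mitochondrial carriers and import genes had 16 of 30 lower, led by SLC25A10, the dicarboxylate carrier (-2.11), and 3 higher, led by TIMM44, of the import motor (1.21). Sphingolipid genes went the other way, with 9 of 22 higher and 2 lower. ASAH1, lysosomal acid ceramidase, was at 191, 92.2 and 51.1 CPM in treated libraries and at 23.0, 20.9 and 20.9 CPM in DMSO libraries (2.12, SE 0.408, adjusted p = 0.00355).

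Ubiquitin ligase families held some of the widest contrasts. KLHL21, a cullin adaptor with a role in cell division, was at 416, 199 and 206 CPM in treated libraries and at 25.1, 24.2 and 24.6 CPM in DMSO libraries (3.33, SE 0.268, adjusted p = 0.000171). KLHL14, a relative expressed in B cells, was at 0.172, 0.799 and 0.725 CPM in treated libraries and at 11.1, 11.9 and 12.1 CPM in DMSO libraries (-3.04, adjusted p = 0.000146). Of 20 tested KLHL genes 10 were higher and 2 lower, and of 59 RNF genes 25 were higher and 9 lower (32 and 6 after scaling). The shares called, 60.0% of KLHL and 57.6% of RNF genes, lie near the 57.2% of all genes. Importins and exportins had 5 of 29 higher and 17 lower (8 and 11 after scaling), with IPO4 at -1.64 and XPOT, the tRNA exporter, at 1.11.

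Genes with LINC or LOC names were called less often than the 57.2% of all genes, while antisense transcripts were not (63.3% of 30 tested). Of 311 tested genes with LINC or LOC names, 41 were higher and 101 lower (61 higher and 82 lower after scaling), 45.7% in all. MIR22HG, the host transcript of miR-22, was at 184, 90.8 and 119 CPM in treated libraries and at 10.4, 4.42 and 4.28 CPM in DMSO libraries (4.20, adjusted p = 0.000199). LOC344887 was at 10.8, 4.84 and 3.38 CPM in treated libraries and at 0 in every DMSO library. LOC150568 averaged 1.52 ± 0.669 CPM treated and 25.9 ± 12.9 CPM in DMSO (-3.30), and LY86-AS1 0.369 ± 0.0283 CPM treated and 5.90 ± 1.29 CPM in DMSO (-2.32). The strand setting of the counting is not given in the sources used here, so reads of an antisense gene and of its partner cannot be told apart.

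Treated libraries were not equally far from DMSO. The SD of the log2 differences over all genes was 1.07 in pair 1, 0.848 in pair 2 and 0.921 in pair 3. Pair 3 had the fewest reads in both groups, and what that adds to its SD was not tested. The 6 genes at 10 CPM or more whose pairs ranged most widely were KIF20A, HJURP and DLGAP5, all genes of mitosis, with PTAFR, ASZ1 and ST3GAL5. KIF20A, a kinesin of cell division, was at 6.54, 43.0 and 51.1 CPM in treated libraries and at 81.9, 79.9 and 98.7 CPM in DMSO libraries (-1.76, SE 0.655, adjusted p = 0.0501). The groups did not overlap, yet the spread among treated libraries kept it just short of a call. HJURP, the chaperone that loads centromeric histone, was at 10.5, 54.7 and 69.9 CPM in treated libraries and at 85.6, 83.8 and 100 CPM in DMSO libraries (-1.34, adjusted p = 0.0909). With the replicate block both were called, at adjusted p = 0.00832 and 0.0196, and so was PTAFR, at 0.00387. ST3GAL5, a ganglioside sialyltransferase, was at 29.2, 11.9 and 3.62 CPM in treated libraries and at 7.43, 5.21 and 6.21 CPM in DMSO libraries, higher in 2 pairs and lower in the third (0.75, adjusted p = 0.307). It was called higher without treated replicate 3 (1.45, adjusted p = 0.0141), in DESeq2 (1.5, adjusted p = 0.0208) and in edgeR with the replicate block (1.23, adjusted p = 0.0418).

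**Figure D4:**
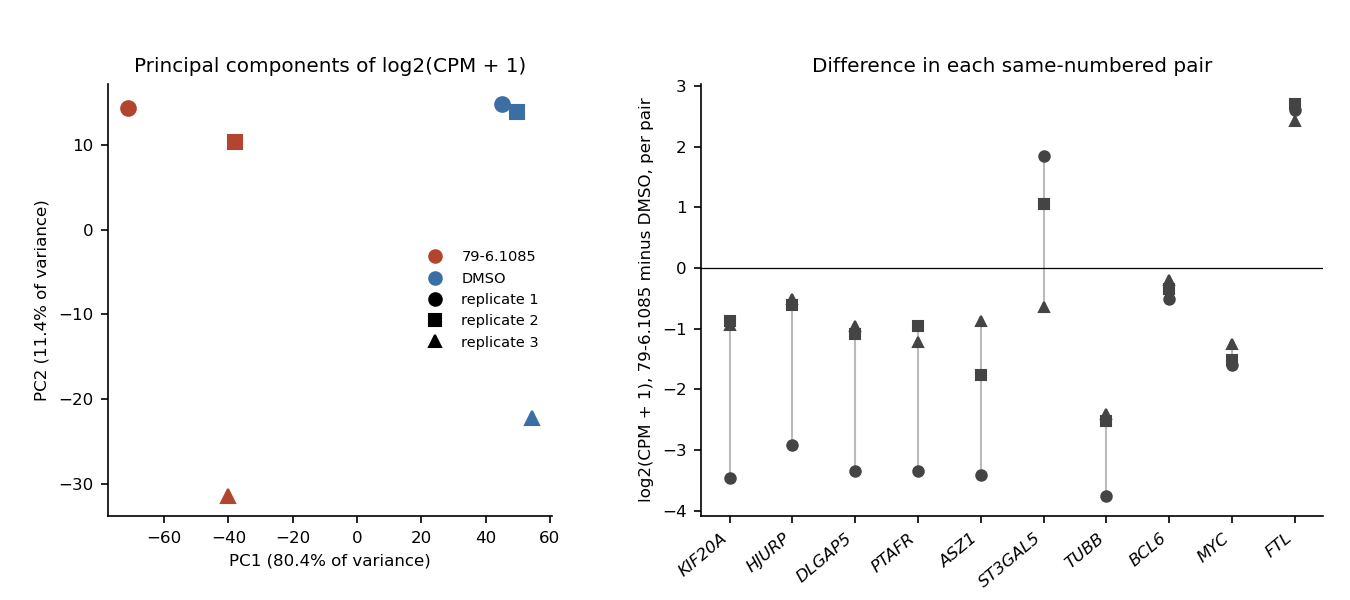
Left, the 6 libraries on the first and second principal components of log2(CPM + 1), treated in red and DMSO in blue; right, the log2 difference of each same-numbered pair for 10 genes, 1 marker per replicate number. Treated replicate 1 lies farthest out on the first component and gives the largest fall of the mitosis genes, while the 3 pairs lie close together for BCL6, MYC and FTL.

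The response of SUDHL6 was set against the mean response of Farage and SUDHL4 by a contrast in a fit of all 18 libraries. It differed for 4807 of 12769 genes (37.6%), 3063 of them above and 1744 below. This fit shares 1 spread across lines, and SUDHL6 replicates vary more than the others, so p-values for SUDHL6 can be too small. BCOR differed (1.45, adjusted p = 1.76e-05) and so did CBX8 (0.87, adjusted p = 0.00360), while BCL6 (0.17, adjusted p = 0.472) and EZH2 (-0.35, adjusted p = 0.191) did not pass. Neither BCOR nor CBX8 was called in SUDHL6 itself, so these differences are not called rises in that line.

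The 5 called differences of smallest p in each direction, at a mean of 5 CPM or more in SUDHL6, are given here. Above the other lines were LMNA, FURIN, FAM129A, ASH2L and WDR11. LMNA, the A-type nuclear lamin, was at 19.4, 39.5 and 32.7 CPM in treated SUDHL6 and at 3.16, 3.13 and 4.07 CPM in DMSO SUDHL6. In Farage it averaged 12.8 ± 1.70 CPM in treated and 31.5 ± 2.16 CPM in DMSO libraries, and in SUDHL4 2.20 ± 0.344 CPM treated and 1.94 ± 0.0852 CPM in DMSO (difference of responses 3.33, SE 0.231, adjusted p = 9.15e-08). The gene rose in SUDHL6 and was lower with treatment in Farage. FURIN, a proprotein convertase, was at 36, 31.3 and 33.9 CPM in treated SUDHL6 and at 5.89, 4.61 and 3.75 CPM in DMSO SUDHL6, against 61.0 ± 6.03 CPM treated and 50.5 ± 2.39 CPM in DMSO Farage and 59.0 ± 2.13 CPM treated and 34.5 ± 0.324 CPM in DMSO SUDHL4 (difference 2.10, adjusted p = 5.18e-08). ASH2L, a core subunit of H3K4 methyltransferase complexes, averaged 74.0 ± 3.82 CPM treated and 98.1 ± 1.49 CPM in DMSO SUDHL6, 28.0 ± 2.55 CPM treated and 73.9 ± 2.75 CPM in DMSO Farage, and 21.4 ± 1.08 CPM treated and 85.3 ± 4.68 CPM in DMSO SUDHL4 (difference 1.26). WDR11, a WD repeat protein, averaged 67.9 ± 8.04 CPM treated and 62.2 ± 5.64 CPM in DMSO SUDHL6 (adjusted p = 0.461, and called higher at 0.0450 after scaling and at 0.0441 in DESeq2), 37.4 CPM treated and 102 CPM in DMSO Farage, and 29.2 CPM treated and 67.5 CPM in DMSO SUDHL4 (difference 1.43).

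Below the other lines stood TCL1B, TUBB2B, HK2, ERAP2 and C14orf132. TCL1B, of the TCL1 family of AKT coactivators, was at 15.6, 13.0 and 9.54 CPM in treated SUDHL6 and at 79.7, 76.5 and 60.1 CPM in DMSO SUDHL6. In Farage it averaged 7.31 ± 0.879 CPM treated and 0.841 ± 0.0711 CPM in DMSO, and in SUDHL4 0.558 ± 0.161 CPM treated and 1.08 ± 0.265 CPM in DMSO (difference -3.31, SE 0.196, adjusted p = 4.06e-08). HK2, hexokinase 2, averaged 49.3 ± 9.08 CPM treated and 110 ± 3.60 CPM in DMSO SUDHL6, 79.3 ± 1.62 CPM treated and 33.9 ± 0.507 CPM in DMSO Farage, and 106 ± 5.26 CPM treated and 116 ± 6.19 CPM in DMSO SUDHL4 (difference -1.69). ERAP2, an aminopeptidase that trims peptides for class I, averaged 11.3 ± 1.23 CPM treated and 38.3 ± 3.51 CPM in DMSO SUDHL6, 51.4 ± 1.49 CPM treated and 78.4 ± 2.51 CPM in DMSO Farage, and 29.3 ± 0.328 CPM treated and 19.8 ± 1.16 CPM in DMSO SUDHL4 (difference -1.65). TUBB2B and C14orf132 were at or near 0 in both other lines, so no response could be seen there, and edgeR on whole reads called neither difference (adjusted p = 1.0 for both).

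**Figure D5:**
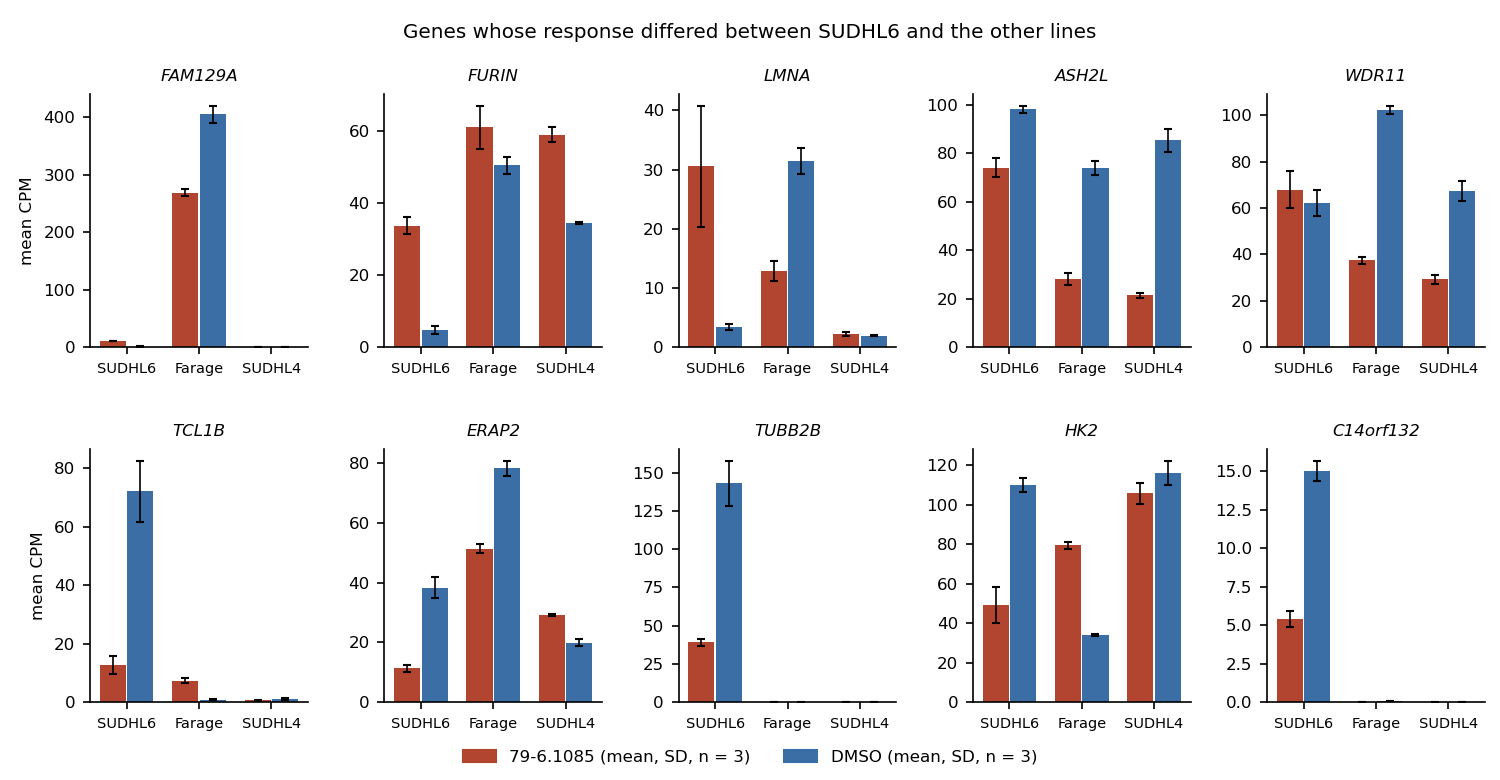
Mean CPM (bars) with SD (n = 3 libraries) of 10 genes in SUDHL6, Farage and SUDHL4, treated in red to the left of DMSO in blue. LMNA is higher in treated SUDHL6 and lower in treated Farage, HK2 does the reverse, and TUBB2B and C14orf132 show bars in SUDHL6 alone.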

How the data were processed

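The deposited values are CPM for 23250 genes per library. The submitters' processing notes name STAR and hg19, and 1 label names Rsubread (versions not given in the sources used here). Per the labels, the kit was TruSeq RNA. All values were whole multiples of 1 read (100.0% within 0.01 reads), so whole reads were recovered for count tests. limma 3.58.1 (R 4.3.3, intensity trend, two-sided) was fitted to log2(CPM + 1) of the 6 SUDHL6 libraries, without a replicate block; the pseudocount of 1 understates changes of low genes. Genes needed 1 CPM in 3 of 6 libraries, and calls an adjusted p under 0.05. Fold changes are log2, treated over DMSO.

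Same-numbered libraries were taken as pairs, by the replicate numbers of the labels. Deviations from group means correlated at 0.442, 0.505 and 0.653 for the same numbers and at -0.501 to 0.116 for other numbers. Deviations within a group cancel, so these correlations are not independent of each other. Alternatives include edgeR 4.0.16 and DESeq2 1.42.0 on recovered reads. No libraries were duplicates (chi-square per degree of freedom 17.59 to 57.31). Named genes came from a rule: BCL6, EZH2, CBX8, BCOR, the largest called changes in log2, in CPM and per list or family, switched, steady, noncoding, pair-variable and line-different genes. The members, 41 lists and 15 families were chosen with earlier results of these data known. Of 1021 list symbols 1019 were found, 18 by an older symbol. Tests were tried on simulated data with known changes. A few single genes and 1 list are not reported here.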

Additional observations from a re-analysis of the deposited data

Results flagged for a closer look

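A test of the difference itself, the response of SUDHL6 minus the mean response of Farage and SUDHL4, was called for 4807 of 12769 genes, and the 10 of smallest p, 5 in each direction at a mean of 5 CPM or more in SUDHL6, are given here. Above the other lines were LMNA by 3.33, FAM129A by 2.87, FURIN by 2.1, WDR11 by 1.43 and ASH2L by 1.26 on the log2 scale. Below them were TCL1B at -3.31, TUBB2B at -1.79, HK2 at -1.69, ERAP2 at -1.65 and C14orf132 at -1.3. TUBB2B and C14orf132 were at or near 0 in Farage and SUDHL4, so their differences restate the change in SUDHL6 alone, and edgeR called neither (adjusted p = 1.0 for both). FAM129A stood at 10.9 ± 0.306 CPM in treated and 0.913 ± 0.378 CPM in DMSO SUDHL6, at 269 ± 6.35 CPM treated and 406 ± 14.7 CPM in DMSO Farage, and at 0.324 ± 0.103 CPM treated and 0.19 ± 0.0443 CPM in DMSO SUDHL4 (SD, n = 3 each). What lies behind these differences was not tested.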

How the results depend on the processing

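Over all settings run, the count of higher genes ranged between 1985 (without both replicate 3 libraries) and 3682 (edgeR with the replicate block), and that of lower genes between 2889 (without DMSO replicate 2) and 5273 (all 18 libraries in the fit). With each library left out in turn, 2017 to 2273 genes were higher and 2889 to 3881 lower. The replicate block gave 2862 higher and 4616 lower, and 6417 of the 6418 called genes kept their call; with edgeR 5605 did. DESeq2 gave 3322 higher and 3210 lower, a pseudocount of 0.25 gave 2481 and 3895, no filter 2760 and 3915, and a mean of at least 5 CPM 2208 and 3334. The count of genes whose response differed from the other lines was 3745 with edgeR and 4216 to 5273 with each SUDHL6 library left out. Of 348 named genes, 306 had the same call in every setting that tested them, and none changed sign within SUDHL6. Not every setting tested all of them, and the filter at a mean of at least 5 CPM kept 311. The difference for C14orf132 turned to 0.205 in edgeR, a gene near 0 in the other lines; the cause was not tested. Of 1792 counts for lists and families, 1581 stayed within 1.5 times their main value. Depth limits low genes most, since 3 reads are 0.362 CPM in the shallowest library.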

Other observations

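Single genes of several smaller groups changed, and the groups' counts stand against 57.2% of all genes called (22.2% higher, 35.0% lower). Among circadian clock genes 6 of 16 tested were higher and 4 lower, 62.5% in all. PER3, a period gene, averaged 3.22 ± 0.30 CPM in treated and 9.20 ± 0.560 CPM in DMSO libraries (log2 fold change -1.27, adjusted p = 0.000701), NR1D1, a repressor of the clock, fell by 1.39 on the log2 scale, and CSNK1D, a kinase of period proteins, rose by 1.34. Nuclear receptors had 7 of 21 higher and 3 lower, 47.6% in all, below the share of all genes. NR3C1, the glucocorticoid receptor, averaged 213 ± 46.2 CPM treated and 89.1 ± 11.2 CPM in DMSO (1.24), and NR4A1 and NR4A3, immediate early members, rose by 1.18 and 1.36. Of 8 KLF factors 3 were higher and 3 lower, with KLF6 at 1.28 and KLF13 at -1.28.

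Carrier genes as a family lay near the share of all genes, with 43 of 188 tested SLC genes higher and 74 lower (58 higher and 62 lower after scaling). SLC39A7, a zinc transporter of the endoplasmic reticulum, averaged 472 ± 52.3 CPM treated and 214 ± 0.650 CPM in DMSO (1.13), and 7 of 17 genes of its list were higher and 5 lower (7 and 2 after scaling). SLC19A1, the reduced folate carrier, averaged 5.16 ± 0.974 CPM treated and 41.0 ± 5.52 CPM in DMSO (-2.77, adjusted p = 0.000146). Of 416 tested ZNF genes 116 were higher and 77 lower (155 and 62 after scaling), 46.4% in all. RNA helicases of the DDX and DHX kind had 5 of 48 higher and 24 lower (8 and 17 after scaling).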
